A study of Mus musculus with 10 samples.

Results

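Lysine-specific demethylase 1 (LSD1, encoded by Kdm1a) was mapped by chromatin immunoprecipitation followed by sequencing (ChIP-seq) in skeletal muscle of C57BL/6J mice, either fed or after 24 h of starvation. According to the labels the mice were 10 weeks of age, and no genetic modification or drug is given for either group. The LSD1 libraries are 2 of the 10 libraries of the study, 1 per condition, chosen by their labels, and the data are their lists of broad peaks, 16616 in fed and 66332 in starved muscle, out of 365066 peaks in the 8 lists of the series. Chromatin came from nuclei of limb muscle, a tissue that holds myofibre nuclei together with nuclei of satellite, vascular, connective tissue and immune cells. The study states a minimum number of mice per condition and of repeats, and the sources used here do not say whether a library pooled animals. The deposited starved list is far longer than the starved LSD1 list that the study's text describes and may be another version of the calls. Every kept, lost and gained site below refers to the deposited lists and could differ with that other list, which was not analysed here. With 1 library a side there is no spread between replicates, so every difference below describes these libraries and carries no p-value. The depth of the libraries is unknown.

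LSD1 is a flavin-dependent amine oxidase that removes methyl groups from mono- and dimethylated lysines of histone H3. It has no sequence-specific DNA-binding domain of its own and reaches chromatin with partners such as the CoREST proteins and transcription factors, among them nuclear receptors. In muscle cells it is known to take part in differentiation with myogenic factors. The glucocorticoid receptor (GR), mapped in the same study, is the hormone receptor through which glucocorticoids promote protein breakdown during food deprivation.

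Each peak is described by its fold enrichment, which is the signal of the LSD1 library over that of the input chromatin at the same place. A fed peak is called kept when at least 1 bp of it is overlapped by a starved peak, and lost otherwise. A starved peak without a fed peak is called gained. Peaks are promoter peaks when the midpoint lies at most 1000 bp before or 100 bp after the start site of a transcript (TSS), and distal when over 10 kb from any TSS. The sequences of 7 of the sites described below show what kinds of DNA carried LSD1. They are from the GRCm38 reference, 5′ to 3′, with matches to the searched motifs, on either strand, in capitals: the E-box CAGCTG, bound by myogenic factors, the SP/KLF box GGGGCGGG, and the glucocorticoid response element (GRE), bound by GR. Of the 4 distal sites, a kept one near Acta1 and a lost one near Zfp664 each hold an E-box. The others are the Ddit4 site with a GRE, and a lost site that is a tandem repeat. The 3 promoter sequences are the 200 bases before the TSS of 2 promoters that kept LSD1 and of 1 that lost it.
Acta1, distal, kept (chr8:123883264-123883448, plus strand): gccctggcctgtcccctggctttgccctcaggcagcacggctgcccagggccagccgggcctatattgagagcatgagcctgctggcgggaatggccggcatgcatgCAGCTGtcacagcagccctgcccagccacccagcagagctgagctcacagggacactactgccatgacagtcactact
Zfp664, distal, lost (chr5:124891958-124892157, plus strand): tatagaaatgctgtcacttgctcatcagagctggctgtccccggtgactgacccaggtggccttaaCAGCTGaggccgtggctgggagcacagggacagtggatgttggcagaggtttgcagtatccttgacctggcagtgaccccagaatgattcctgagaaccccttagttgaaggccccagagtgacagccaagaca
Ddit4, distal, kept (chr10:59974237-59974436, plus strand): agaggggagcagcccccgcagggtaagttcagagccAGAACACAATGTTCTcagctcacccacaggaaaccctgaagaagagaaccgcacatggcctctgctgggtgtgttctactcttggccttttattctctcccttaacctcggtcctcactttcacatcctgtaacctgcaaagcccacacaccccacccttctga
Myo3b, distal, lost (chr2:69994275-69994474, plus strand): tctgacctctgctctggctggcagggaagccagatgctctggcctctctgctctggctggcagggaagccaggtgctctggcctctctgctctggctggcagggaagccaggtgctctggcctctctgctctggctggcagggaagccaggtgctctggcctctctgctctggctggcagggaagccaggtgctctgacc
Trim63, promoter, kept (chr4:134314920-134315119, plus strand): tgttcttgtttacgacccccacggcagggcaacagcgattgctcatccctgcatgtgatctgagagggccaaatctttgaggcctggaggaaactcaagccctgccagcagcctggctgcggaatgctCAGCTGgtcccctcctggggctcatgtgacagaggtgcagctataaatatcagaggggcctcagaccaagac
B4galt5, promoter, kept (chr2:167349179-167349378, minus strand): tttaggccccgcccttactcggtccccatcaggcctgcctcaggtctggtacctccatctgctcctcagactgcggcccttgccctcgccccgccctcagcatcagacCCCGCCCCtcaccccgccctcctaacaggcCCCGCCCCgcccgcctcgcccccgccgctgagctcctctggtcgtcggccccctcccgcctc
Abl1, promoter, lost (chr2:31759739-31759938, plus strand): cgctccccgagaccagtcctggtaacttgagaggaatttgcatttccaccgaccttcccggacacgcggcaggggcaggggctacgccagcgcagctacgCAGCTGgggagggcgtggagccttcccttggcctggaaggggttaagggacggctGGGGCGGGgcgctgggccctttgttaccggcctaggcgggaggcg

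LSD1 stayed most often at promoters. Of the 5553 fed promoter peaks 35.1% were kept (95% CI 33.9 to 36.4), against 14.6% of the 6475 distal peaks (95% CI 13.8 to 15.5). Fed peaks outside promoters but within 10 kb of a TSS lay in between, with 20.4% of 4588 kept (95% CI 19.3 to 21.6). Exonic fed peaks were kept at 26.2% and intronic ones at 13.5%. These intervals are exact binomial ones and cover counting error only, and neighbouring peaks are not independent. The order of promoter over distal peaks was the same when both lists were restricted to a q-value of 0.01 or less, at 10.7% and 7.31%.

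The starved list shared little with the fed list away from promoters. Of the 4061 starved promoter peaks 48.8% (95% CI 47.2 to 50.3) overlapped a fed peak, and of the 49210 distal starved peaks 1.93% (95% CI 1.81 to 2.06) did. The starved list also held a smaller share of stringent peaks, with 10.2% at a q-value of 0.01 or less against 45.5% in the fed list. Its median fold enrichment was 3.44, against 4.03 in the fed list. On the 19 autosomes the kept share of fed peaks ran from 20.0% to 26.1%, on X it was 17.2% of 116 peaks and on Y 30.8% of 52.

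Long fed peaks were kept more often than short ones. Since 1 bp of overlap is enough, a longer peak is easier to keep, so this order is partly set by the rule. Among promoter peaks the kept share was 18.0% (95% CI 15.5 to 20.8) below 100 bp and 64.5% (95% CI 60.7 to 68.1) at 500 bp or more. Among distal peaks it was 9.14% and 40.0%. Fold enrichment ordered the distal peaks in the same way from a fold of 3.5 upwards, from 8.09% between 3.5 and 4 to 48.2% (95% CI 41.1 to 55.4) above 6. The 254 distal peaks with a fold of 3.5 or less did not follow this order, with 44.1% kept. Promoter peaks led distal ones only between 3.5 and 6. They were kept at 20.65% of 310 at a fold of 3.5 or less and at 43.75% of 16 (95% CI 19.75 to 70.12) above 6. Of the low distal peaks 32.3% were repeat-masked over at least 50% of their bases, as were 58.8% of the distal peaks above 6, against 7.35% between 3.5 and 4.

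**Figure D1:**
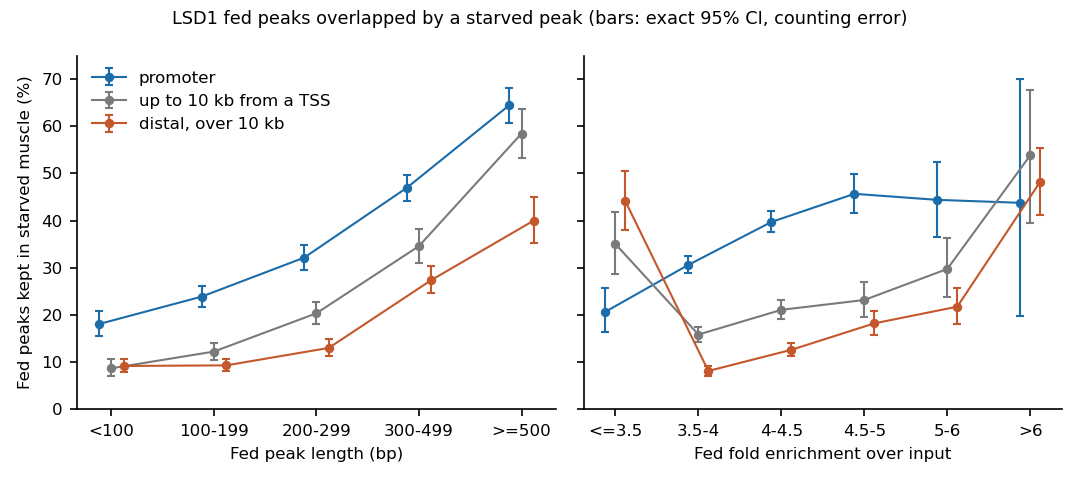
Share of LSD1 fed peaks overlapped by a starved peak (percent, y axis) by the length of the fed peak in bp (left) and by its fold enrichment over input (right), for promoter, near and distal peaks, with exact 95% intervals. At every length promoter peaks were kept more often than distal peaks, from 18.0% to 64.5% against 9.14% to 40.0%. By fold they were not at 3.5 or less (20.65% against 44.1%) and above 6 (43.75% against 48.2%).

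Where LSD1 was called in both lists, enrichment was mostly lower in starved muscle. The 3834 kept fed peaks had a median fold of 4.10, and their starved partners one of 3.49. The median ratio of the starved to the fed fold was 0.853 (quartiles 0.774 and 0.938), and the starved fold was the higher one in 482 pairs, or 12.6%. The ratio was 0.867 at promoters and 0.823 at distal sites. Only 24.9% of the starved partners reached a q-value of 0.01. Across pairs, which are not independent of their neighbours, the log2 folds had a Pearson r of 0.82 and a Spearman rho of 0.50 over 947 distal pairs, and of 0.14 and 0.12 over 1950 promoter pairs, as a description. The 2 lists differ as a whole in median fold, so a ratio below 1 at a site cannot be told apart from a difference between the libraries.

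Kept sites carried GR peaks more often than lost sites, and over all lengths H3K9me2 peaks too. Among distal fed peaks 66.2% (95% CI 63.1 to 69.2) of the kept and 43.5% (95% CI 42.2 to 44.8) of the lost ones overlapped a GR peak of fed muscle, and 75.2% against 45.9% overlapped a GR peak of starved muscle. Among promoter peaks the shares for GR in starved muscle were 78.7% and 55.1%. Dimethylated lysine 9 of histone H3 (H3K9me2), one of the marks LSD1 can remove, was called in fed muscle at 35.0% (95% CI 32.9 to 37.2) of the kept and 23.0% (95% CI 21.7 to 24.5) of the lost promoter peaks. Since longer peaks overlap more, the same shares were taken for peaks of 200 to 300 bp. There GR of fed muscle was called at 63.5% of 178 kept and 50.4% of 1178 lost distal peaks, and GR of starved muscle at 78.1% and 51.0%, so the gap for GR of fed muscle was smaller than over all lengths. GR of starved muscle was called at 77.0% of 408 kept and 55.6% of 862 lost promoter peaks, and H3K9me2 of fed muscle at 30.9% (95% CI 26.4 to 35.6) and 24.5% (95% CI 21.6 to 27.5). The gap for H3K9me2 was thus also smaller than over all lengths, and its intervals overlapped.

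Gained sites were of another make. The 48260 distal starved peaks without a fed peak had a median length of 95 bp and a median of 1 CpG in the central 200 bp, and 27.6% were repeat-masked over at least 50% of their bases. GR was called in starved muscle at 2.87% of them, against 73.6% of the 950 distal starved peaks shared with fed muscle. Gained promoter peaks stood between these extremes, with GR of starved muscle at 34.5% of 2081 peaks and a median of 10 CpGs, against 76.1% and 19 for the shared ones. Lost fed promoter peaks had a median of 16 CpGs.

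Gene by gene, how often LSD1 was kept depended on the lists compared. By nearest TSS, 9212 of 26180 annotated genes (35.2%) had a fed peak and 17703 (67.6%) a starved peak. Both lists had a peak for 7625 genes (29.1%), only the fed list for 1587 (6.06%) and only the starved list for 10078 (38.5%). Of the fed genes 82.8% (95% CI 82.0 to 83.5) still had a peak somewhere nearby, in a list that covered 67.6% of all genes. The share was 31.8% of 5194 fed genes with both lists at a q-value of 0.01 or less, and 48.7% of 9212 with the starved list cut to the length of the fed list. In the lists as deposited it rose with the number of fed peaks, from 77.4% of 5867 genes with 1 peak to 99.8% of 514 genes with 5 or more.

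Promoters gave a narrower picture. A fed peak lay in the promoter of 5863 genes (22.4%) and a starved peak in that of 4232 (16.2%). LSD1 was kept at 2505 promoters (9.57% of all), lost from 3358 (12.8%) and gained at 1727 (6.6%). Whether more were kept or lost depended on the window: with 1 kb on either side of the TSS 3685 promoters were kept and 3585 lost. In the narrower window 42.7% of the fed promoters (95% CI 41.5 to 44.0) were also starved promoters, although not always through overlapping peaks. Of the 3358 lost promoters 563 had a starved peak within 1 kb of the fed peak, and 2289 belonged to genes with a starved peak elsewhere. The last count can be read against the 67.6% of all genes that had a starved peak by nearest TSS. In 289 kept promoters the highest peaks of both lists had a q-value of 0.01 or less.

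Each count of promoters in a gene list below can be read against the 9.57% of all promoters kept, 12.8% lost and 6.6% gained. As a share of all members, kept promoters made up 9 of 17 mitochondrial regulators and 0 of 1110 olfactory receptors. As a share of the fed promoters they made up 6 of 7 myogenic factors, 9 of 12 mitochondrial regulators and 9 of 12 fuel genes. Of all fed promoters 42.7% were kept. With both lists at a q-value of 0.01 or less these counts were 1 of 5, 0 of 5 and 1 of 7, against 292 of all 2732 fed promoters. At this limit they were 0 of 11 for LSD1 and its partners and 0 of 8 for insulin, mTORC1 and FoxO genes. For H3K9 methylation enzymes, autophagy genes and myofibre markers they were 0 of 5, 0 of 3 and 0 of 2. Other lists kept some, such as 3 of 5 in the atrophy ubiquitin list and 3 of 15 GR targets and clock genes. A promoter counts as kept when both lists have a peak in it, whether or not these peaks touch. The lists were chosen with earlier results of these data known, and nothing is claimed for a list beyond its counts.

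**Figure D2:**
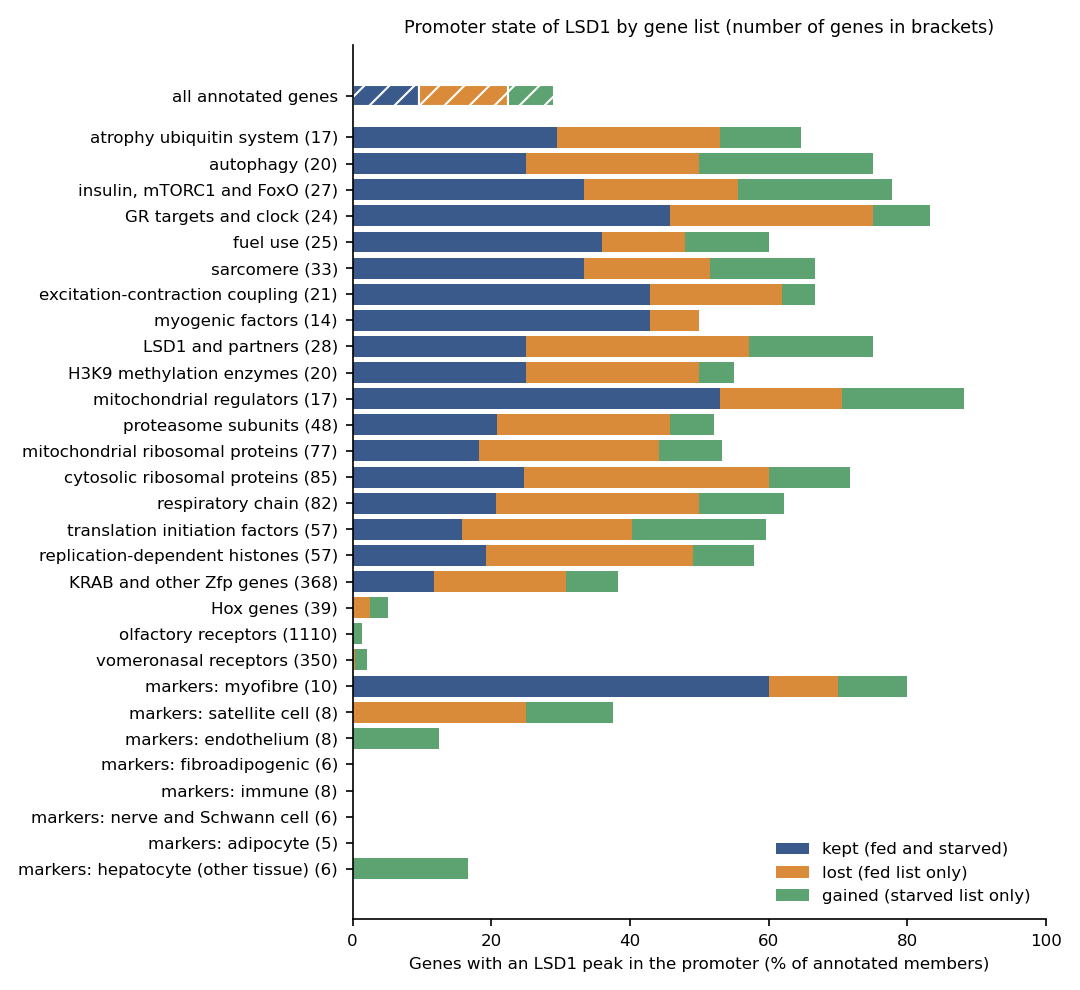
Percent of the annotated members of each gene list with an LSD1 promoter peak (x axis), split into kept, lost and gained, with the number of genes in brackets and all annotated genes hatched at the top. Of all annotated promoters 9.57% were kept. Lists of muscle genes lie to the right of this, with 6 of 10 myofibre markers and 11 of 33 sarcomere genes kept. So do lists of other genes, with 21 of 85 cytosolic ribosomal proteins and 9 of 17 mitochondrial regulators kept.

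LSD1 promoter peaks were more common at myofibre markers than in the other marker lists, all of which are short. Of 10 myofibre markers 6 kept LSD1 at the promoter, 1 lost it and 1 gained it. Kept ones included Actn3, the fast-fibre alpha-actinin (fold 3.89 in fed and 3.88 in starved muscle), and Mylpf, the fast regulatory myosin light chain (3.98 and 3.81). Atp2a1, the fast-fibre calcium pump, was lost (4.34 in fed muscle). Markers of fibroadipogenic, immune, nerve and Schwann cells and of adipocytes had no LSD1 promoter peak in either list (0 of 6, 0 of 8, 0 of 6 and 0 of 5). Endothelium had 1 of 8, gained at Pecam1 (4.15), and satellite cells had 3 of 8, with Sdc4 (4.84) and Chrdl2 (4.30) lost and Itga7 gained (3.25, q-value 0.0671). Hepatocyte genes, of another tissue, had 1 of 6, gained at Fgb (4.36). Of all promoters 22.4% had a fed and 16.2% a starved peak. By nearest TSS, starved peaks lay at 9 of 10 myofibre, 8 of 8 endothelial, 6 of 6 fibroadipogenic and 4 of 6 hepatocyte markers. Satellite cells had 8 of 8, immune cells 5 of 8, nerve and Schwann cells 3 of 6 and adipocytes 2 of 5, against 67.6% of all genes.

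Regulators of the muscle programme were among those that kept LSD1. Of 14 myogenic factors 6 were kept, 1 was lost and none was gained. At the promoter of Myog, which drives terminal differentiation, the fold was 4.90 in fed and 4.22 in starved muscle. Mef2a, a MADS-box partner of the myogenic factors, had 4.67 and 3.94, and Mef2d, Six4 and Srf were also kept. Myod1 was the lost one, with a fed fold of 3.98. In the sarcomere list 11 of 33 were kept, 6 lost and 5 gained. Tnni2, the fast troponin I, was kept (4.46 and 3.86), as was Ttn, while Mybpc1 (4.68) and Myl1 (4.59), a myosin light chain, were lost. Acta1, the skeletal alpha-actin, had a promoter peak in starved muscle only (4.21).

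Calcium handling genes had LSD1 at 14 of 21 promoters in either list, with 9 kept, 4 lost and 1 gained. Cacna1s, the voltage sensor of the T-tubule, was kept (4.21 and 3.90). Orai1, the pore of store-operated calcium entry, was lost (4.80), while its sensor Stim1 was gained (3.23, q-value 0.0359).

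Genes of protein breakdown split between kept and lost. In the atrophy ubiquitin list 5 of 17 were kept, 4 lost and 2 gained. Trim63, the ubiquitin ligase MuRF1, had 4.29 in fed and 4.24 in starved muscle, and Fbxo30, a ligase of the same programme, had 4.76 and 4.12. Fbxo40 (3.99) and Cblb (3.84), ligases that act on insulin signalling, were lost. Of 48 proteasome subunits 10 were kept, 12 lost and 3 gained. Psmd2, a subunit of the regulatory particle, was kept with 4.58 and 4.87, and Psma3, of the core particle, was lost (4.96). In the autophagy list 5 of 20 were kept, 5 lost and 5 gained. Bnip3l, a mitophagy receptor, was kept (3.78 and 3.70). Tfeb, the transcription factor of lysosomal genes, was lost (4.64), and the initiating kinases Ulk1 (4.10) and Ulk2 (4.61) were gained.

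The growth pathway opposed to breakdown gave 9 of 27 kept, 6 lost and 6 gained. Sesn1, an inhibitor of mTORC1, was kept (4.24 and 3.91), and so was Ddit4, another inhibitor, with the higher fold in starved muscle (3.89 and 5.10). Mtor, the kinase itself, was lost (4.13), as was Eif4ebp1, the translation repressor it controls (4.76). Irs2, Foxo1 and Foxo3 were kept, Irs1, Igf1r and Pik3r1 were lost, and Akt1, Akt2, Insr and Tsc1 were gained.

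Known targets of GR and clock genes were kept at 11 of 24 promoters and lost at 7, with 2 gained. Cebpd, a transcription factor of the acute response, had 4.07 in fed and 3.94 in starved muscle, and Sgk1, a kinase induced by glucocorticoids, 4.06 and 3.92. Tsc22d3, which encodes the glucocorticoid-induced leucine zipper (4.32), and Per1, of the clock (4.12), were lost. In the fuel list 9 of 25 were kept, 3 lost and 3 gained. Pnpla2, the lipase that opens triglyceride breakdown, was kept (4.46 and 4.24), as was Cpt1b, which brings fatty acids into mitochondria (4.10 and 3.90), and Pdk4, the brake on glucose oxidation. Ppargc1b, a coactivator of mitochondrial genes, was lost from a fed fold of 5.90, and its relative Ppargc1a was gained (3.24, q-value 0.0748).

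Mitochondrial regulators had 9 of 17 promoters kept, 3 lost and 3 gained. Tfam, the packaging factor of mitochondrial DNA, had 3.70 in fed and 3.94 in starved muscle, and Gabpb1, a subunit of the GABP factor, fell from 5.75 to 3.68. Esrra, an orphan nuclear receptor, was lost (4.14). In the respiratory chain 17 of 82 promoters were kept and 24 lost, which turned to 29 kept of 48 fed promoters with 1 kb on either side of the TSS. Of 77 mitochondrial ribosomal proteins 14 were kept and 20 lost, and 18 of 43 fed promoters were kept in the wider window. The lost ones included Cox8b (4.57) and Mrpl50 (5.22), and the kept ones Ndufs5 (4.55 and 3.89) and Mrpl42 (4.31 and 4.17).

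Other large gene groups had more lost than kept promoters, as did all promoters together, with 42.7% of the fed ones kept. The kept share of fed promoters was 41.2% in cytosolic ribosomal proteins, 39.1% in initiation factors, 39.3% in histones and 38.05% in zinc finger genes. With 1 kb on either side of the TSS the order turned for all promoters (3685 kept, 3585 lost). It also turned for translation initiation factors (17 of 30 fed promoters kept) and replication-dependent histones (19 of 37). Cytosolic ribosomal proteins had 21 of 85 kept and 30 lost, with Rps10 kept (3.99 and 4.59) and Rpl35a lost (4.57). Translation initiation factors had 9 of 57 kept and 14 lost, with Eif3j1 kept (5.49 and 3.99) and Eif4a2 lost (5.05). Replication-dependent histone genes had 11 of 57 kept and 17 lost, with H2ac6 kept (4.02 and 4.63) and H4c8 lost (5.63). These histone genes share promoters in pairs and are near-identical, so a peak can count for more than 1 of them. Zinc finger genes had 43 of 368 kept and 70 lost, with Zfp703 kept (4.60 and 4.74) and Zfp759 lost (5.66). Of 39 Hox genes none was kept, Hoxc11 was lost (4.66) and Hoxd3 gained (3.35). Of 350 vomeronasal receptors 1 was lost and 6 were gained, and of 1110 olfactory receptors 15 were gained.

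LSD1 also occupied its own gene. Kdm1a kept a promoter peak, with a fold of 4.35 in fed and 4.04 in starved muscle (q-value 0.0193). Among LSD1 and its partners 7 of 28 promoters were kept, 9 lost and 5 gained. With both lists at a q-value of 0.01 or less 0 of 11 fed promoters were kept. Hmg20b, a subunit of the CoREST complex, was kept (3.93 and 3.51). Phf21a, another subunit, was lost (4.62), and Rcor3, of the CoREST family, was gained (3.71, q-value 0.0388). Among enzymes and readers of H3K9 methylation 5 of 20 were kept, 5 lost and 1 gained. The kept ones included Kdm4c (4.13 and 3.69), Kdm7a (4.05 and 3.84) and Ehmt2, which encodes the methyltransferase G9a. The demethylases Kdm4a (5.38) and Kdm3b (4.86) were lost.

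Around the 19 genes that the study used as examples, 61 fed peaks lay within 30 kb of a TSS and 23 of them were kept, against 90 starved peaks. At the promoter 10 of the 19 genes kept LSD1, 3 lost it and 1 gained it. With 1 kb on either side of the TSS all 16 fed promoters among them were kept, with both lists at a q-value of 0.01 or less 2 of 9, and with the starved list cut to the length of the fed list 6 of 13. For 11 of the genes the starved list had more peaks than the fed list, for 2 fewer and for 6 as many. The whole starved list held 66332 peaks against 16616 in the fed list, and 23.1% of all fed peaks were kept. Pax7, a satellite cell factor, had no peak within 30 kb in either list.

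**Figure D3:**
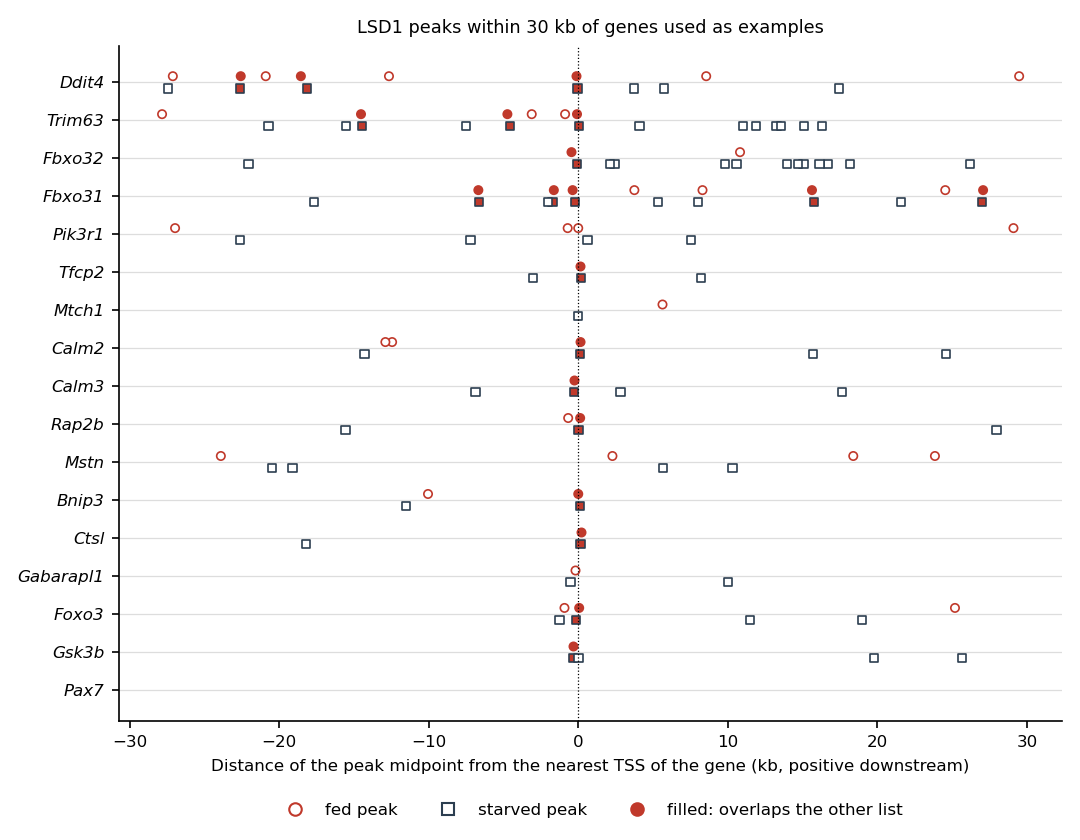
Positions of LSD1 peak midpoints within 30 kb of the example genes that are described (x axis, kb from the nearest TSS of the gene, positive downstream), fed peaks as circles above and starved peaks as squares below each line, filled where they overlap the other list. At Fbxo31 5 of 8 fed peaks are filled and at Mstn none of 4, and Pax7 has no symbol.

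Ddit4, on the minus strand of chromosome 10 with its TSS at 59951770, had 8 fed peaks, of which 3 were kept, and 7 starved peaks. The kept distal site printed above lay 22.6 kb upstream, where the fed peak measured 558 bp with a fold of 5.23 and the starved one 59 bp with 3.49. The GRE lay in the fed peak and outside the short starved peak. A second kept site lay 18.6 kb upstream, with a fed peak of 731 bp (4.10) and a starved peak of 225 bp (3.25, q-value 0.0596). Fed sites at 12.7 and 20.9 kb upstream had folds of 4.01 and 4.34 and no starved peak. At 27.1 kb a fed peak (4.17) and a starved peak at 27.4 kb (3.31, q-value 0.0724) lay next to each other without overlap.

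Trim63, on chromosome 4 with its TSS at 134315120, had 6 fed peaks, of which 3 were kept, and 13 starved peaks. At the promoter LSD1 covered 517 bp in fed and 795 bp in starved muscle. A further site 14.5 kb upstream was kept, with 4.69 in fed and 4.54 in starved muscle. In starved muscle 5 peaks lay within the introns, between 4.09 and 13.6 kb from the TSS, where the fed list had none, and 1 of these 5 had a q-value of 0.01 or less. Fbxo32, the ligase atrogin-1 on chromosome 15, had 2 fed peaks, 13 starved peaks and a kept promoter (4.36 and 3.70). Its fed promoter peak of 755 bp was matched by one of 1349 bp.

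Fbxo31, an F-box gene on chromosome 8, kept 5 of 8 fed peaks. Its promoter had the largest difference in fold among the kept examples, from 6.496 in fed (q-value 1.5e-08) to 3.27 in starved muscle (q-value 0.0714). An exonic fed peak 24.5 kb into the gene, with a fold of 6.03, had no starved partner. Foxo3 kept its promoter with 5.11 and 3.69.

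Where a promoter was lost, a starved peak could lie just outside the window. Pik3r1, a regulatory subunit of PI3 kinase, lost a promoter peak of 602 bp (3.57) and another of 87 bp (3.74), and a starved peak lay 0.614 kb downstream of the TSS (3.33, q-value 0.0748). At Bnip3 and Tfcp2 the fed promoter peaks were overlapped by starved peaks whose midpoints fell 0.12 and 0.18 kb downstream of the TSS, so the peaks were kept although the promoters counted as lost. Mstn, which encodes myostatin, had 4 fed and 4 starved peaks and none in common.

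Of the remaining examples, Calm3, a calmodulin gene, had 1 fed peak, which covered the promoter and was kept (4.21 and 3.15). Calm2, also a calmodulin gene, kept an intronic peak 0.147 kb from the TSS (4.69 in fed and 4.03 in starved muscle). Gsk3b, a kinase of glycogen synthesis, kept its only fed peak, with 4.21 in fed and 3.41 at the overlapping starved peak (q-value 0.0583). The highest starved promoter peak (3.54) did not touch the fed one. Rap2b, a small GTPase, kept a peak at its TSS (3.91 and 3.41), and Ctsl, a lysosomal protease, kept an exonic one (4.33 and 4.02). Gabarapl1, an autophagy gene, had a fed peak (3.80) and a starved peak (3.31, q-value 0.0748) in its promoter that did not touch. Mtch1, of the mitochondrial outer membrane, had an intronic fed peak (5.03) and a starved peak at the TSS (3.68).

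The strongest kept sites were then listed, among peaks of at least 150 bp with less than 50% repeat-masked bases and a q-value of 0.01 or less in both lists. Of 171 such promoter sites the leading ones were at Rnu1a1 (5.26 in fed and 5.09 in starved muscle), Rnu3b2 (5.07 and 5.65), Eapp (5.02 and 5.69), B4galt5 (5.30 and 4.81) and the shared promoter of Htra2 and Aup1 (4.78 and 4.92). B4galt5 encodes a galactosyltransferase, and its promoter printed above holds 2 SP/KLF boxes. Htra2 is a mitochondrial protease. Of 59 distal sites the leading ones were 11.4 kb downstream of the TSS of Acta1 (5.14 and 4.93), 14.6 and 18.3 kb upstream of Eapp (4.81 and 5.59, and 4.58 and 6.32), 48.5 kb from Pde6h (5.21 and 4.77) and 23.1 kb from Tef (4.54 and 4.54). The Acta1 site, of 223 bp, holds 1 E-box and overlapped GR peaks of both conditions. The Tef site carried the highest GR enrichment among these, 7.19 in fed and 9.46 in starved muscle.

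Lost sites were ranked by their fed fold and kept ones by the lower fold, so the folds of these leading sites cannot be set against each other. Over all distal fed peaks the median fold was 4.25 at kept and 4.06 at lost sites. Candidates for lost sites were chosen to have no starved peak within 1 kb, so this absence is a rule and not a result. The leading lost promoters, of 696 candidates, were Bod1l (6.26, q-value 1e-06), Mtmr12 (5.77), Neurl1a (5.69), Abl1 (5.54), a tyrosine kinase gene, and Epn2 (5.54). Among 1173 distal candidates the highest was an intronic site of 433 bp on chromosome 2 (69994159 to 69994591, fold 9.83, q-value 2.77e-18), 44.8 kb from the nearest TSS, of Myo3b. Its sequence, printed above, repeats with a period of 39 bases, with 95.7% of the bases equal to the one 39 before, and no GR or H3K9 peak was called on it. The next were near Mgat5 (8.93), Sec61b (8.85), Mir6338 (8.13) and Zfp664 (7.67), and all 4 overlapped a GR peak of fed muscle, with GR folds of 5.25, 5.61, 7.49 and 8.82. The last 3 also overlapped a GR peak of starved muscle. The printed Zfp664 site holds 1 E-box and lies in intergenic DNA 29.4 kb from the TSS. Tandem repeats of at least 80% match were present in 5.07% (95% CI 3.76 to 6.66) of the kept and 1.1% (95% CI 0.845 to 1.42) of the lost distal fed peaks.

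The leading gained sites were ranked by their starved fold, among starved peaks chosen to have no fed peak within 1 kb. At promoters, with 49 candidates, they ran from 5.05 at Snhg4, a host gene of small nucleolar RNAs, to 4.72 at Plxnb2, with Sox7 (4.78), Atxn10 (4.78) and the Fam227b promoter (4.73) between. Distal ones, of 300 candidates, ran from 5.34 near 1190028D05Rik to 4.81 near Atp6v1e1, and only the sites near 1190028D05Rik and Atp6v1e1 among the 5 overlapped a GR peak of starved muscle.

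Several of these sites lay on genes of small nuclear RNAs, the RNA parts of the splicing machinery, and of U3, which guides the processing of ribosomal RNA. Rnu1a1 is a U1 gene, Rnu3b2 a U3 gene, all 3 leading Eapp sites lay at predicted U1 genes, and the leading gained distal site lay on a predicted U2 gene, Gm25813. All annotated genes of these families were therefore examined, with peaks within 250 bp, a choice made after their values were seen. Of 123 U1 genes and gene copies 14 had LSD1 in both lists, none in the fed list alone and 5 in the starved list alone. For U2 the counts were 9, 0 and 3 of 33, and for U3 4, 0 and 1 of 10. By this rule all 27 fed-bound genes of the 3 families were kept, and 22 of them had a starved q-value of 0.01 or less. A peak of each list near the gene was enough, whether or not these peaks touched. U1 and U3 sites had led the ranking of kept sites, so the choice of families partly set this count. Of all fed promoters 42.7% were kept, by another window, and no share over all genes by the present rule is given.

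The folds at these genes are a description, since U1 and U3 sites led a ranking that required a high starved fold, and the copies lie in clusters. The starved fold was the higher one at 11 of 14 kept U1 genes and at 4 of 4 U3 genes, with median ratios to the fed fold of 1.14 and 1.19, while it was higher at 2 of 9 U2 genes (0.888) and at 12.6% of all pairs. The U1 cluster on chromosome 12 near Eapp held 7 kept genes between positions 54696782 and 54738622. Within it LOC115488065 had 4.58 in fed and 6.32 in starved muscle, and Gm22317 had 4.502 and 5.981 (q-value 6.82e-10). Outside clusters, Gm23238 on chromosome 19 had 4.61 and 6.77. Among U3 genes Rnu3b1 had 4.72 and 6.20, and Rnu3b4 4.54 and 5.78.

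**Figure D4:**
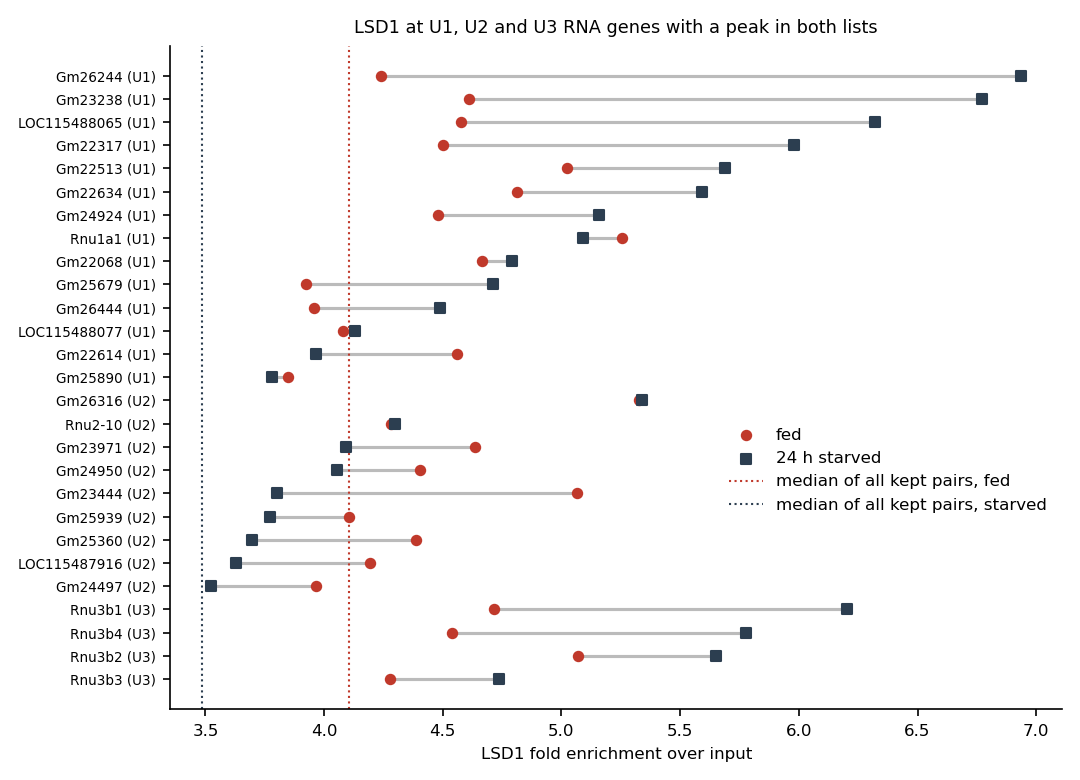
LSD1 fold enrichment over input (x axis) at the 27 U1, U2 and U3 genes with a peak in both lists, fed as circles and 24 h starved as squares, with the medians of all kept pairs as dotted lines. Starved squares lie to the right of the fed circles at 11 of 14 U1 and 4 of 4 U3 genes, and at 2 of 9 U2 genes.

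These genes are near-identical copies, so the share of each copy is uncertain. Among 10 kept U1 copies of 164 bp the median identity was 99.4% (lowest 97.0%), but that of the 100 bases upstream was 41.0%. The 3 kept U3 copies of 215 bp were 100% identical both in the gene and in the 100 bases upstream, so that these do not separate the copies. The authors kept reads with 1 location, and reads inside identical stretches do not have 1. The flanks of 3 kept U1 copies show how different they are, with no searched motif in any of them.
Rnu1a1 flank, U1, chromosome 11 (chr11:87422767-87422866, plus strand): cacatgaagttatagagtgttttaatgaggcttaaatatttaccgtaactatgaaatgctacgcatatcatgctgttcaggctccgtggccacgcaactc
Gm22634 flank, U1, chromosome 12 (chr12:54710208-54710307, plus strand): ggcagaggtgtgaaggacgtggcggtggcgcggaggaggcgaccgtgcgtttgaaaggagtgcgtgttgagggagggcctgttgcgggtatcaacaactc
Gm23238 flank, U1, chromosome 19 (chr19:18732641-18732740, plus strand): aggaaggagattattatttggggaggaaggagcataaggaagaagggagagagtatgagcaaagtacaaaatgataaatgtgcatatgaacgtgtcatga

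GR was called on the fed LSD1 peak at 4 of the 14 kept U1 genes in fed and 7 in starved muscle, and at all 4 U3 genes in both. Other small RNA genes did not share this pattern. U4 genes lost both of their fed-bound copies, U6 genes had 1 fed-bound copy of 712 and lost it, and U11 kept its 1 (4.501 and 3.719). Of 403 genes of transfer RNAs 22 were kept, 72 lost and 28 gained, with a median ratio of 0.86 in the kept ones. MicroRNA precursors had 22 kept and 31 lost of 1225.

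Sequence motifs separated distal fed sites from gained ones more than kept from lost ones. The E-box CAGCTG was in 24.1% (95% CI 21.4 to 26.9) of the 200 bp windows at kept and 25.8% (95% CI 24.7 to 27.0) at lost distal sites, against 10.6% at gained sites and 7.198% of 264761 genome windows of the same length. The GRE was in 2.43% (95% CI 1.55 to 3.62) of kept, 1.14% (95% CI 0.877 to 1.46) of lost and 0.147% of gained distal windows, against 0.117% of genome windows. The AP-1 motif TGANTCA was in 8.66%, 8.56% and 6.33%, against 6.00% of genome windows. MEF2 sites were in 5.17%, 6.26% and 2.16%, against 4.68%.

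At promoters the SP/KLF box GGGGCGGG was in 29.7% (95% CI 27.7 to 31.8) of kept, 21.7% (95% CI 20.3 to 23.1) of lost and 14.8% of gained windows. Over 23307 RefSeq promoter windows of 300 bp its share was 21.4%. In these windows it was 37.3% at kept, 33.2% at lost, 26.0% at gained and 15.4% at promoters without LSD1. The NRF1 core GCGCATGCG was in 2.87% of kept, 2.58% of lost and 1.39% of gained promoter windows, and the ETS/GABPA motif CCGGAAGT in 5.44%, 5.19% and 3.89%, with intervals of kept and lost windows that overlapped. The YY1 motif AAGATGGCG was in 2.77%, 2.19% and 1.83%. In the RefSeq promoter windows the order of kept and lost turned for YY1 and ETS/GABPA, with YY1 at 2.81% and 3.78% and ETS/GABPA at 7.93% and 9.29%, and NRF1 was at 4.58% and 3.84%. Both strands were searched, and these motifs follow base composition, which differed too: the median CpG number of RefSeq promoter windows was 25 at kept, 22 at lost and 18 at gained promoters, and 7 at those without LSD1.

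**Figure D5:**
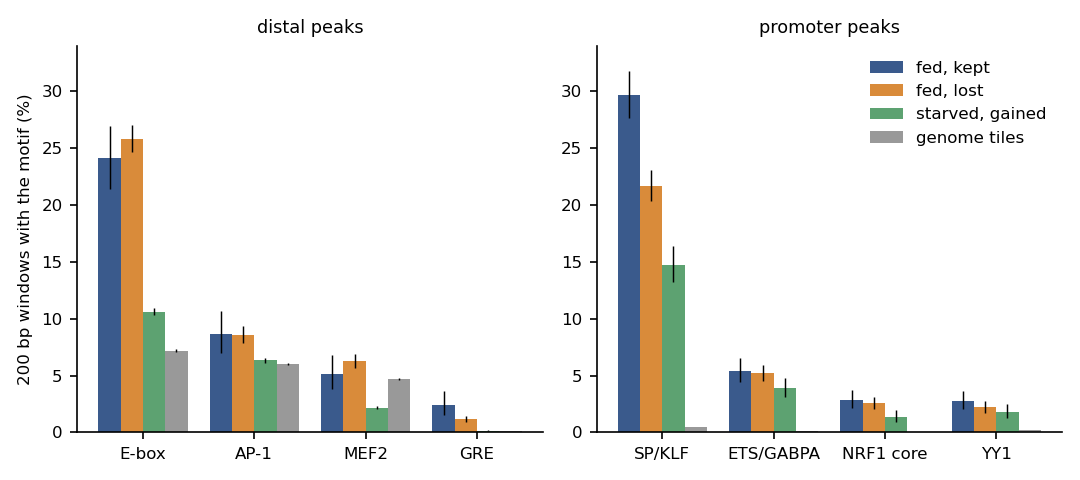
Percent of 200 bp windows around LSD1 peak midpoints that hold each motif (y axis), for distal (left) and promoter peaks (right) that were kept, lost or gained and for genome windows of the same length, with exact 95% intervals. Kept and lost distal sites both lie near 25% for the E-box (24.1% and 25.8%), gained ones at 10.6%.

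Some genes had LSD1 over many sites. By nearest TSS, Erdr1 led with 46 fed peaks and G530011O06Rik followed with 30, both in the region shared by X and Y, where copies cannot be told apart, and 24 and 8 of these peaks were mostly repeat-masked. All 18 fed peaks of Mir101c lay in repeats at the start of chromosome 9 with folds of 1.58 to 1.78. Cuedc1 on chromosome 11 had 18 fed peaks with folds of 3.46 to 4.98, of which 5 were kept, overlapped by 4 starved peaks. Gse1, which encodes a protein found with LSD1 in CoREST complexes, had 18 fed peaks (3.68 to 5.62), none of them kept, and 9 starved peaks at other places. The next genes were A330074K22Rik with 17 fed peaks (3.73 to 6.93), none kept, Fam53b with 17, of which 4 were kept, and Zbtb16, a zinc finger factor of the GR target list, with 16, of which 4 were kept.

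Joined within 1 kb, the distal peaks formed 1442 kept loci, 4610 lost and 46365 gained ones, so that 23.8% of 6052 fed loci were kept (95% CI 22.8 to 24.9). Kept loci, which hold a peak of each list, had a median length of 498 bp and lost loci one of 166 bp. A lost locus of 4 fed peaks lay 51.6 kb from Mir29b-1 (highest fold 4.49). Near Mafa 3 fed and 2 starved peaks shared a locus (5.32 and 4.34), and near Dysf, a membrane repair gene, 4 fed peaks (4.86) faced 1 starved peak (3.45).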

How the data were processed

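LSD1 and input chromatin of fed and 24 h starved mice were sequenced by the authors, who mapped reads to mm10, kept uniquely mapped reads and called broad peaks with MACS2 for each library against its input. The deposited values per peak are the fold enrichment over input (a ratio), −log10 of the p-value and −log10 of the q-value. The deposited score was not used. The q-values reach 0.0932 in the fed and 0.0979 in the starved list, although the methods name a stricter limit. A blacklist of the human genome was named, and satellite peaks remain. Depth was not in these files, so values carry no depth-based precision, and a longer list can reflect library or caller as well as chromatin. The labels give both LSD1 libraries 1 code, P2731.

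Peaks were placed on GRCm38 with curated RefSeq transcripts (26180 genes) in Python 3.11.15 with numpy 2.4.6, pandas 2.3.3, scipy 1.17.1 and matplotlib 3.10.9. Peaks overlapping by 1 bp or more were shared. Promoters held the 1000 bp before and 100 bp after a TSS. Other peaks went to the nearest TSS. Shares carry exact Clopper-Pearson intervals. Motifs were counted in windows of 200 bp. Named genes were, in each list, the 2 kept promoters with the highest lower fold of both conditions and the 2 lost promoters with the highest fed fold, the study's example genes, the 5 leading sites of each state and the 5 genes with most fed peaks. Leading sites were ranked by fold, kept ones by the lower fold. Lost and gained ones had to have no peak of the other list within 1 kb. Gained examples and other genes were named after their values were seen. The members and lists were chosen with earlier results of these data known. Overlap counting was tested on simulated peaks. Alternatives for q-value, list length, peak length, repeats, overlap and promoter window were run. Some genes that these rules name are counted in their lists and not reported here.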

Additional observations from a re-analysis of the deposited data

How the results depend on the processing

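The kept shares of all, promoter and distal fed peaks (23.1%, 35.1% and 14.6%) moved with most settings, and promoter peaks were kept more often than distal peaks in each setting run for both. They were 8.54%, 10.7% and 7.31% with both lists at a q-value of 0.01 or less, 29.7%, 42.0% and 21.4% with only the fed list so restricted, 11.2%, 17.8% and 6.81% with the starved list cut to the length of the fed list, and 19.3%, 28.4% and 11.1% with peaks of at least 150 bp. Requiring peaks to share 50% or more of the shorter one gave 19.3%, 29.2% and 12.8%, and midpoints within 500 bp of each other gave 30.03%, 44.61% and 19.04%. A promoter window of 1 kb on either side gave 33.5% for promoter peaks. Distal peaks were at 13.3% without peaks repeat-masked over 50% or more and at 13.4% without fed folds of 3.5 or less, the last chosen after seeing the data.

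Counts moved with the stringency of the lists. Kept genes, kept promoters, gained promoters and kept distal loci numbered 7625, 2505, 1727 and 1442. They numbered 1652, 292, 490 and 239 with both lists at a q-value of 0.01 or less, 4496, 1288, 2944 and 902 with only the fed list so restricted, 4489, 1208, 545 and 549 with the starved list cut, and 4156, 1291, 1045 and 526 with peaks of at least 150 bp. Lost promoters numbered 3358, and 1444 with only the fed list restricted. Kept genes numbered 4764 when the nearest TSS had to lie within 10 kb. With 1 kb on either side of the TSS 3685 promoters were kept and 3585 lost, which turned the order of these counts. Kept genes were 31.8% of the fed genes with both lists at a q-value of 0.01 or less and 48.7% with the starved list cut, against 82.8%. Of the 54 values 15 stayed within the limit set for each and 39 moved. Of 180 counts of kept promoters in gene lists 66 moved. Kept U1, U2 and U3 genes stayed between 22 and 27 in alternatives chosen after seeing the data. No paired analysis was possible because each condition has 1 LSD1 library. The unknown depth limits every absent peak: a lost site may be one that was not detectable.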
